A study of Saccharomyces cerevisiae and Saccharomyces paradoxus and Saccharomyces mikatae with 10 samples.

Results

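N17 and N44 are wild strains of Saccharomyces paradoxus, the undomesticated sister species of the baker's yeast S. cerevisiae, and their transcript levels were compared gene by gene. A gene entered the comparison when both strains had a value and the mean of the pair was at least 1. Of the 4325 genes in the deposited table, 4313 had a value in both strains, 16 of these fell under the mean of 1, and 4297 were compared. Both strains are labelled as isolates from oak trees in Russia, N17 from Tartastan and N44 from Ternei. The study sequenced messenger RNA from 9 strains of 3 yeast species to ask whether expression profiles follow descent or environment. The other strains used here are the 6 of S. cerevisiae: YPS606 from an oak tree and DBVPG1788 from soil, both labelled wild, DBVPG6040 from fruit juice, Y9 from a distillery, BC187 from wine and YJM145, labelled clinical. All strains grew at 30 °C in a synthetic oak exudate medium holding 1% sucrose with 0.5% each of fructose and glucose, and were harvested at an optical density of 0.5. The labels give neither ploidy nor mating type. Each strain had 1 value per gene, from 1 library except in YPS606, where 2 replicate libraries were joined into 1 value. No difference below therefore has a replicate check, and no test was possible. A difference between N17 and N44 cannot be told apart from a difference between their cultures or libraries.

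In S. cerevisiae, cells growing on fermentable sugar balance a growth programme (ribosomes, amino acids, purines) against a respiratory and stress programme, and many regulators shift both together. Transcription of purine and amino acid biosynthesis genes there is driven by the activators Bas1 and Gcn4, which bind a shared core sequence, and ribosome assembly genes carry an element named PAC. Mating genes are set by cell type: a cells transcribe a-specific genes, alpha cells alpha-specific genes, and a/alpha diploids repress both.

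Levels are given in RPKM, a measure of read number per length of gene and size of library, which was inferred to be the unit from the values themselves. Differences are N17 minus N44 in log2(RPKM + 1) after quantile normalisation, so a positive value means higher in N17 and the change of low genes is understated. A difference of 2-fold or more was seen in N17's favour for 315 genes, 7.33% of those compared, and in N44's favour for 251 genes, 5.84%. Counts of list members past 2-fold below are to be read beside these shares. A stricter count kept the genes whose difference was also larger than the gene's whole range (highest minus lowest) over the 6 S. cerevisiae strains. It held 228 genes higher in N17, or 5.32%, and 210 higher in N44, or 4.90%. Of all genes past 2-fold, 55.7% were higher in N17 and 44.3% in N44. That split depended on the scaling: without normalisation it was 72.3% against 27.7%, and with the strains centred on their medians 68.2% against 31.8%. The median difference over all genes was −0.07 after quantile normalisation and 0.03 without it, and the medians of gene lists below are given relative to the median of all genes. Where a single gene is placed within, above or under the S. cerevisiae strains, the place is read from the RPKM values printed unless said otherwise. Normalisation moved some of these places: of 745 genes that were on a list or named by rule, 245 had another place for N17 or N44 after it.

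**Figure D1:**
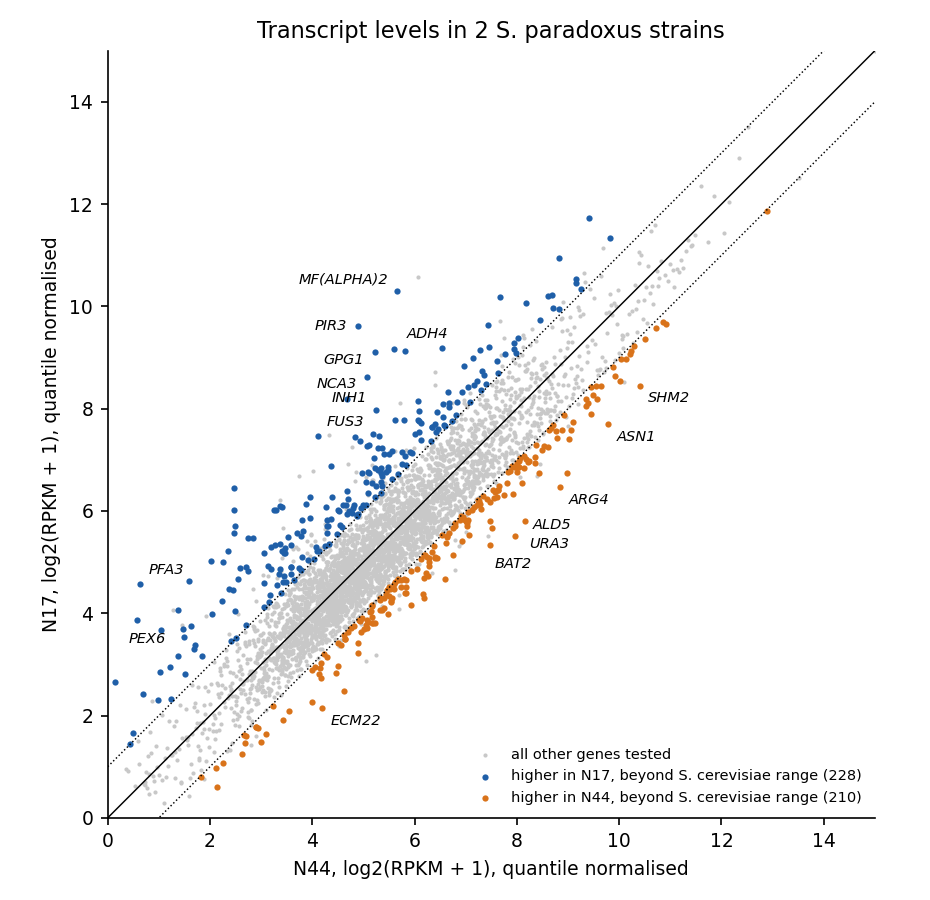
Each point is 1 of the 4297 genes, with its normalised log2(RPKM + 1) in N44 on the horizontal axis and in N17 on the vertical axis; the solid line marks equal levels and the dotted lines 2-fold. The 228 blue and 210 orange genes lie past 2-fold by more than their S. cerevisiae range, and the largest distances from the line are on the N17 side.

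The deposited values of the 2 strains differed more than those of any pair of S. cerevisiae strains. The standard deviation of the difference over genes was 0.731, against 0.440 to 0.637 in the 15 S. cerevisiae pairs. That is 1.43 times the median S. cerevisiae pair. Genes past 2-fold made up 13.1% of those with a value in every strain, against 2.73% to 8.84%, and genes past 4-fold 1.89%, against 0.303% to 1.33%. The S. cerevisiae pair sharing the wild label, YPS606 and DBVPG1788, had a standard deviation of 0.536. The S. paradoxus pair was the widest in each of 4 equal groups of genes by level: 0.755 in the lowest group, where the widest S. cerevisiae pair had 0.618, and 0.807 in the highest, where it had 0.710. The 15 pairs share strains, so their spread is a description and not an error of independent values. The narrowest pair, YPS606 and BC187 at 0.440, includes the strain with 2 joined libraries. For N17 and N44 the depth is unknown and the genome their reads were aligned to is not given. Whether depth or alignment widened the S. paradoxus pair was not tested.

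**Figure D2:**
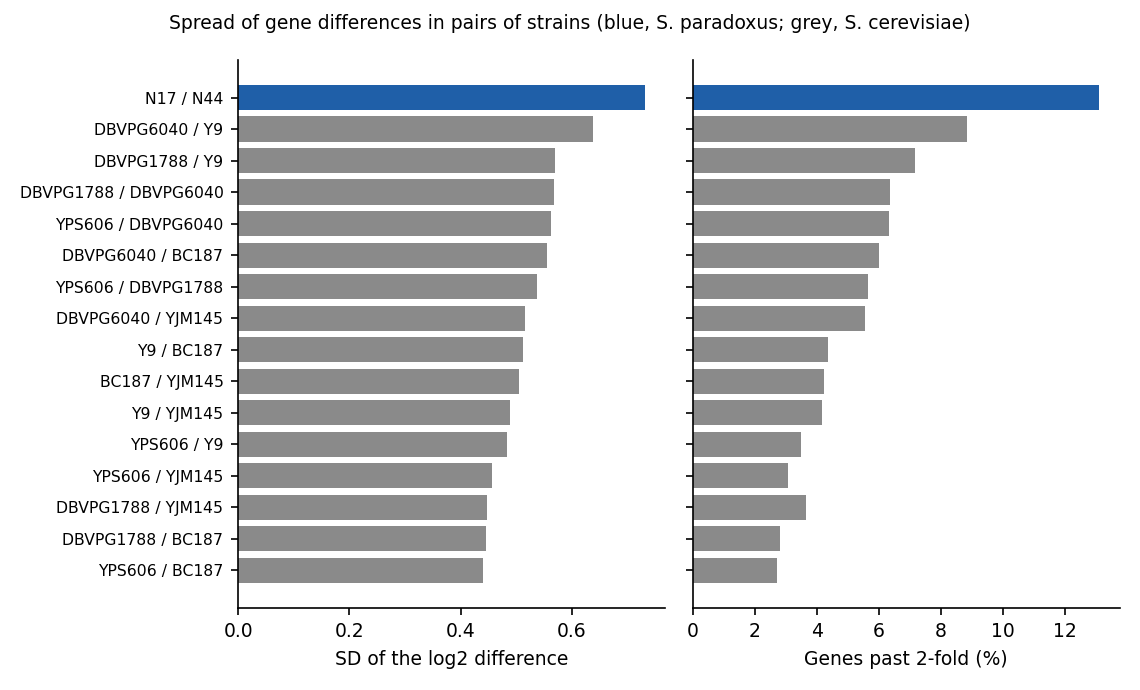
Bars give the standard deviation of the log2 difference over genes (left) and the percentage of genes past 2-fold (right) for N17 and N44 (blue) and for the 15 pairs of S. cerevisiae strains (grey). The S. paradoxus pair is the longest bar in both, at 0.731 and 13.1%.

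Purine synthesis genes stood higher in N44. All 16 measured genes of a purine and one-carbon list lay below the median of all genes, which means relatively higher in N44, and 12 of them were past 2-fold beyond the S. cerevisiae range. The list median was −1.24, where no S. cerevisiae pair exceeded 0.55 in size. The genes past the range span the pathway from its first committed enzyme to salvage, and include enzymes that supply one-carbon units. The core letters shared by Bas1 and Gcn4 sites lie upstream of many of them, and the following stretches of the S. cerevisiae R64 reference genome (RefSeq) are shown as examples from genes past 2-fold, with the letters in both orientations. Capitals mark TGACTC or its complement GAGTCA, each line is written 5′ to 3′ on the gene's own strand, and S. paradoxus sequence was not used here.
SHM2, chrXII:259611-259640, minus strand: accataaaggttTGACTCtatctcttgggt
ADE6, chrVII:616224-616253, minus strand: ttcaaccgttccTGACTCtttcctgctgac
ADE57, chrVII:56286-56315, plus strand: acaagtgccgacTGACTCgtgtcctggtaa
MTD1, chrXI:590209-590238, plus strand: attatgatatatTGACTCagtagaaaagga
ADE13, chrXII:844054-844083, plus strand: cctccgcgagcaGAGTCAaacttcaaacaa

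Among 300-base windows ahead of the start codon, searched on both strands, TGACTC was present in 8.17% of all 4262 genes with a window and in 10 of the 16 purine genes (62.5%). It was present in 22.7% of the genes past 2-fold higher in N44 and in 5.75% of those higher in N17. The letters were not confined to lists higher in N44. They were also in 5 of 14 tricarboxylic acid cycle genes (35.7%), a list described below that stood higher in N17. A match is a description of the letters and not a bound site, and the purine and amino acid genes are part of the N44 share. ADE4, HPT1, BAS1 and AAH1 had no match in their windows and were also past 2-fold.

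SHM2, the cytosolic serine hydroxymethyltransferase, stood at 394 RPKM in N17 and 1234 in N44, with 353, 629 and 1054 as the lowest, median and highest S. cerevisiae values (difference −1.95). In RPKM, N44 was above every S. cerevisiae strain and N17 within their range; after normalisation N17 was under them, with 8.45 against a lowest value of 8.56 on the log2 scale. ADE6, which encodes the enzyme of the fourth step of the pathway, stood at 123 in N17 and 337 in N44 (S. cerevisiae 110, 136 and 161; −1.68). ADE57, a bifunctional enzyme of the early steps, stood at 187 and 510 (246, 342 and 404; −1.61). For ADE57 the strains lay on opposite sides of the S. cerevisiae range, N17 under it and N44 over it. ADE4, the amidotransferase that commits the pathway, stood at 106 and 273 (91.3, 144 and 165; −1.56). MTD1, a methylenetetrahydrofolate dehydrogenase, was above all S. cerevisiae strains in both, at 212 and 526 (75.4, 93.6 and 170; −1.47). For ADE3 both strains were under the S. cerevisiae range, with 102 RPKM in N17 and 204 in N44 against a lowest S. cerevisiae value of 217. N44 stood at 204 and 215, close to or within that range. The gene of the activator itself, BAS1, stood at 17 in N17 and 37.1 in N44 (13.1, 21.6 and 32.8; −1.32). Its partner gene PHO2 did not differ past 2-fold, at 31.1 and 32.8. Salvage genes took part: HPT1, hypoxanthine-guanine phosphoribosyltransferase, had 453 and 923 RPKM, and AAH1, adenine deaminase, had 131 and 285. APT1, ADE12, ADE16 and SHM1 stayed within 2-fold, with differences from −0.67 to −0.25.

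**Figure D3:**
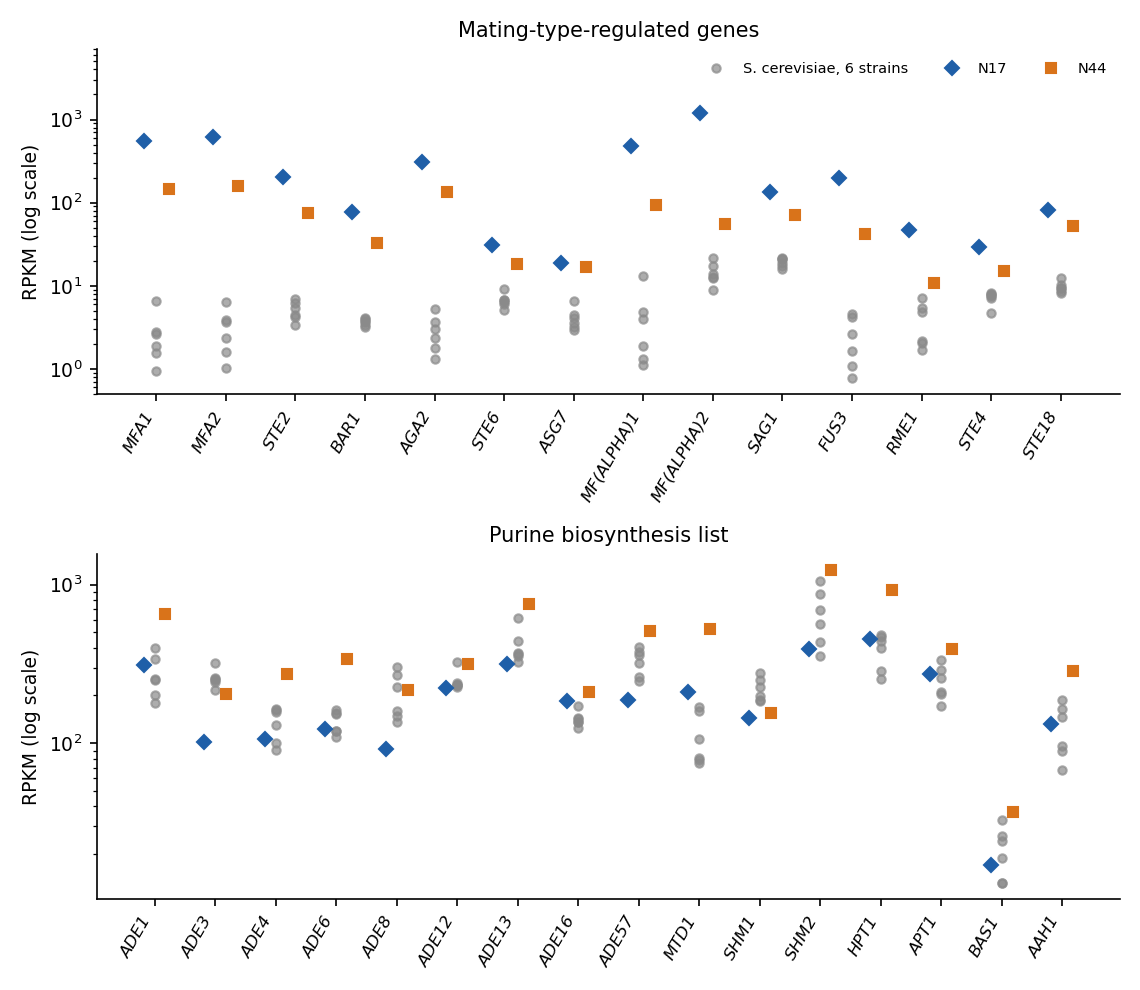
RPKM on a log scale for mating-type-regulated genes (top) and the purine list (bottom) in N17 (blue diamonds), N44 (orange squares) and the 6 S. cerevisiae strains (grey circles). In the purine panel the N44 square lies above the N17 diamond for every gene; in the mating panel N17 is above N44 and both are above all S. cerevisiae strains.

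Amino acid synthesis genes were also higher in N44 for the most part. Of 51 measured genes, 40 lay below the median of all genes, 19 were past 2-fold higher in N44 (14 of them beyond the range) and 3 were past 2-fold higher in N17. The list median was −0.72, against at most 0.50 in an S. cerevisiae pair, and 56.9% of its genes had TGACTC in the window. Windows of 3 genes past 2-fold are shown as examples; BAT2, also past 2-fold, had no match.
ARG4, chrVIII:141564-141593, minus strand: ttagtagatgaaTGACTCactttttggata
ASN1, chrXVI:822381-822410, plus strand: tcatgtaacattTGACTCattctgtaaact
ARG7, chrXIII:396514-396543, minus strand: ggacaggtaggaTGACTCactgcgtaattc

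ARG4, argininosuccinate lyase, stood at 101 RPKM in N17 and 441 in N44 (S. cerevisiae 217, 418 and 525; −2.38). Here N44 was level with S. cerevisiae and N17 was under all 6 strains. The same held for ARG7, an enzyme of ornithine synthesis, at 24.6 and 80.1 (55.8, 85.6 and 131; −1.87), and for HOM3, aspartate kinase, at 92.5 and 241 (148, 208 and 291; −1.60). ASN1, an asparagine synthetase, stood at 227 and 856 (321, 463 and 658; −2.09), and BAT2, the cytosolic branched-chain aminotransferase, at 47.5 and 180 (60.6, 95.1 and 155; −2.15). For both, N17 was under and N44 over every S. cerevisiae strain. The median level of the list on the log2 scale was 6.41 in N17, 7.48 in N44 and 6.95 to 7.42 in the S. cerevisiae strains. GCN4, the gene of the general activator of these pathways, did not differ past 2-fold at the transcript level, with 1319 RPKM in N17 and 1673 in N44; the factor is known to be controlled mainly by translation.

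The lysine branch was the exception. LYS20, a homocitrate synthase, stood at 66.9 in N17 and 18.4 in N44 (73.1, 80.6 and 151; difference 1.91), and its paralogue LYS21 at 93.4 and 39.1 (104, 136 and 172; 1.26). Both strains were under all S. cerevisiae strains for both genes, N44 further. The later lysine genes LYS12 and LYS9 were also low in both strains, at 42.4 and 33.3 RPKM for LYS12 and 43.7 and 29.5 for LYS9, and stayed within 2-fold. LYS20 and LYS21 have near-identical sequences, as do several pairs of ribosomal protein and mating pheromone genes named below, so the split of reads within each pair is uncertain. ARG3, ornithine carbamoyltransferase, was higher in N17 with 161 against 68.8 RPKM, both above the highest S. cerevisiae value of 34.3. The ARG3 difference was smaller than its S. cerevisiae range, which ran from 3.48 to 5.08 on the log2 scale. LEU4 and SER3, higher in N44 with differences of −1.39 and −1.58, had no complete S. cerevisiae range.

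Genes outside these lists also stood higher in N44. URA3, the orotidine phosphate decarboxylase of pyrimidine synthesis, had the largest gap of any compared gene in N44's favour, at 53.8 RPKM in N17 and 245 in N44 (107, 137 and 248; −2.44), with N17 under every S. cerevisiae strain and N44 just inside their range in RPKM. GCV2, a glycine decarboxylase subunit, had the same form with 30.8 and 107 (45.0, 80.9 and 179; −1.94). ALT1, an alanine transaminase, had 59.1 and 186 (87.6, 95.9 and 154; −1.86), with the strains on opposite sides of the range. ALD5, a mitochondrial aldehyde dehydrogenase, stood at 65.0 and 287 (132, 183 and 245; −2.35). GLN3, the activator of genes for poor nitrogen sources, stood at 9.70 in N17 and 25.9 in N44 (21.2, 25.4 and 31.4; −1.62), with N17 under every S. cerevisiae strain. After normalisation N44 was under them as well, at 4.46 against a lowest value of 4.70 on the log2 scale. ECM22, a sterol regulator, had 6.0 and 21.6, and PMA2, an isoform of the plasma membrane proton pump, 6.73 and 19.0.

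Ribosome genes also stood higher in N44. Of 99 measured ribosome biogenesis genes, 94 lay below the median of all genes and 21 were past 2-fold higher in N44, with none past 2-fold higher in N17. The list median was −0.60, just larger in size than the widest S. cerevisiae pair at 0.59, and it no longer exceeded every pair under 4 of the alternative settings. The median log2 level of the list was 6.44 in N44, above the 5.34 to 5.83 of the S. cerevisiae strains, and 5.82 in N17, within them. Single members did not all follow this median. REA1, an ATPase of pre-60S export, stood at 12.5 and 34.4 RPKM (12, 18.4 and 22.7; −1.68). UTP20 and UTP10, components of the small subunit processome, stood at 20.1 and 50.4 (−1.49) and at 40.5 and 96.9 (−1.36). For these 3 genes N17 was within the S. cerevisiae range and N44 above it in RPKM, and after normalisation N17 was under the range in all 3. The letters GATGAG of the PAC element were in the window of 87.9% of the list, against 18.6% of all genes, 29.1% of the genes past 2-fold higher in N44 and 15.3% of those higher in N17.

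The deposited table held 38 of the listed cytosolic ribosomal protein genes. All 38 were compared, and the rest of the family was not analysed here. Of these, 37 lay below the median of all genes and 9 were past 2-fold higher in N44. The list median was −0.63, against at most 0.46 in an S. cerevisiae pair. RPS7B stood at 428 and 972 RPKM (715, 970 and 1167; −1.46) and RPL16A at 332 and 698 (581, 732 and 1028; −1.22). For these 2 genes N44 was within the S. cerevisiae range and N17 under it, the reverse of REA1, UTP20 and UTP10 in RPKM. RPS26B, at 868 and 1859 (592, 849 and 943; −1.24), had N44 above the range instead.

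Mitochondrial respiration genes stood in the other direction. All 33 measured genes of the respiratory chain and ATP synthase lay above the median of all genes, 16 were past 2-fold higher in N17 and 15 of these were beyond the range, with none past 2-fold higher in N44. The list median was 1.06, against at most 0.67 in an S. cerevisiae pair. INH1, the inhibitor that stops ATP synthase from running backwards, stood at 271 RPKM in N17 and 43.0 in N44 (114, 204 and 326; 2.74). ATP15, the epsilon subunit of ATP synthase, stood at 1045 and 292 (486, 582 and 1007; 1.90), and COX7, a cytochrome c oxidase subunit, at 1170 and 400 (316, 416 and 786; 1.54). N44 was under every S. cerevisiae strain for INH1 and ATP15, while for COX7 N17 was the high strain. For ATP15 N17 was also above every S. cerevisiae strain, so the 2 strains lay on opposite sides of the range. The smallest differences were those of the alternative isoforms COX5B, 66.8 and 68.0 RPKM, and CYC7, 229 and 182. CCAAT, the box read by the Hap complex that activates respiration genes, was in the window of 84.8% of the list, against 42.2% of all genes, 48.6% of the genes past 2-fold higher in N17 and 47.0% of those higher in N44.

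The tricarboxylic acid cycle matched it, with 13 of 14 genes above the median of all genes, 5 past 2-fold higher in N17 and a list median of 0.94 (S. cerevisiae pairs up to 0.41). CIT1, citrate synthase, stood at 240 in N17 and 62.5 in N44 (164, 258 and 284; 2.00). FUM1, fumarase, stood at 238 and 75.8 (163, 175 and 206; 1.68), and SDH2, the iron-sulfur subunit of succinate dehydrogenase, at 228 and 78.3 (125, 178 and 269; 1.58). In all 3 the N44 value was under every S. cerevisiae strain, and for FUM1 the N17 value was above every one. The median log2 level of the cycle was 6.68 in N44, 7.74 in N17 and 7.40 to 7.63 in S. cerevisiae. Mitochondrial ribosomal proteins were higher in N17 by less: 56 of 61 lay above the median of all genes, none was past 2-fold, and the list median was 0.48 (pairs up to 0.32).

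The median length of the respiratory list is 444 bases, and short genes as a class were higher in N17. With genes in 4 groups by length, the shortest group had a median of 0.25 relative to all genes and the longest −0.16, where no S. cerevisiae pair exceeded 0.17 and 0.13. Genes past 2-fold higher in N17 had a median length of 867 bases, those higher in N44 1410. After subtraction of the median difference in each of 10 length bins, the respiratory list kept 0.86, the cycle 0.98 and the purine list −1.29, while the mitochondrial ribosomal proteins had 0.28 and no longer exceeded every S. cerevisiae pair. The cytosolic ribosomal proteins, with a median length of 578.5 bases, stood on the other side from the class and had −0.78. The lengths are those of S. cerevisiae R64.

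Other carbon and stress lists also stood higher in N17. The oxidative stress list had a median of 0.89 (pairs up to 0.38), with 14 of 17 genes above the median of all genes. Past 2-fold, 6 were higher in N17 (35.3%, against 7.33% of all genes) and 1 in N44 (5.88%, against 5.84%). SRX1, sulfiredoxin, stood at 78.3 and 22.7 RPKM (6.34, 13.4 and 21.8; 1.82), PRX1, the mitochondrial peroxiredoxin, at 455 and 166 (135, 163 and 178; 1.30), and GPX1, a glutathione peroxidase, at 30.8 and 6.37 (18.5, 33.5 and 56.9; 2.12). N17 was the high strain for SRX1 and PRX1, and N44 the low one for GPX1. YHB1, a nitric oxide dioxygenase, differed by 3.15 but ranged from 3.53 to 2318 within S. cerevisiae.

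Genes of gluconeogenesis and the glyoxylate cycle had a list median of 0.78 (pairs up to 0.33). Of 18 genes, 6 were past 2-fold higher in N17 (33.3%, against 7.33% of all genes) and 2 higher in N44 (11.1%, against 5.84%). SFC1, the succinate-fumarate carrier, stood at 17.1 and 2.68 (1.19, 2.98 and 3.80; 2.23), and IDP2, cytosolic isocitrate dehydrogenase, at 36.1 and 14.1 (6.82, 8.13 and 14.7; 1.32). The exceptions were ICL1, isocitrate lyase, at 14.1 and 34.4 (10.4, 15.0 and 18.3; −1.47), and SIP4, a regulator of gluconeogenesis, at 10.4 and 26.5 (1.09, 2.26 and 4.12; −1.53). Most of these transcripts were low in all strains. The list median moved to 0.52 when genes with a mean under 10 were left out.

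The peroxisome list had a median of 0.65 (pairs up to 0.36). Of its genes, 3 of 18 (16.7%, against 7.33% of all genes) were past 2-fold, all higher in N17. They were PEX6, of the chromosome XIV block described below, DCI1 at 23.8 and 4.95 RPKM, and ECI1, an enoyl-CoA isomerase, at 14.5 and 5.58. All 30 measured proteasome genes lay above the median of all genes, with a list median of 0.69 (pairs up to 0.59). The 2 past 2-fold, both higher in N17, are 6.67% of the list, near the 7.33% of all genes. The list no longer exceeded every S. cerevisiae pair without normalisation, with median centring or with the pair normalised alone. PRE2 and PRE10, core particle subunits, stood at 302 and 142 and at 237 and 115 RPKM. GUT2, the mitochondrial glycerol-3-phosphate dehydrogenase, was the 1 glycerol gene past 2-fold, at 57.1 and 16.4 (30.4, 44.1 and 51.4; 1.79). Heat shock genes had a median of 0.52, inside the S. cerevisiae pairs, which reached 0.61.

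**Figure D4:**
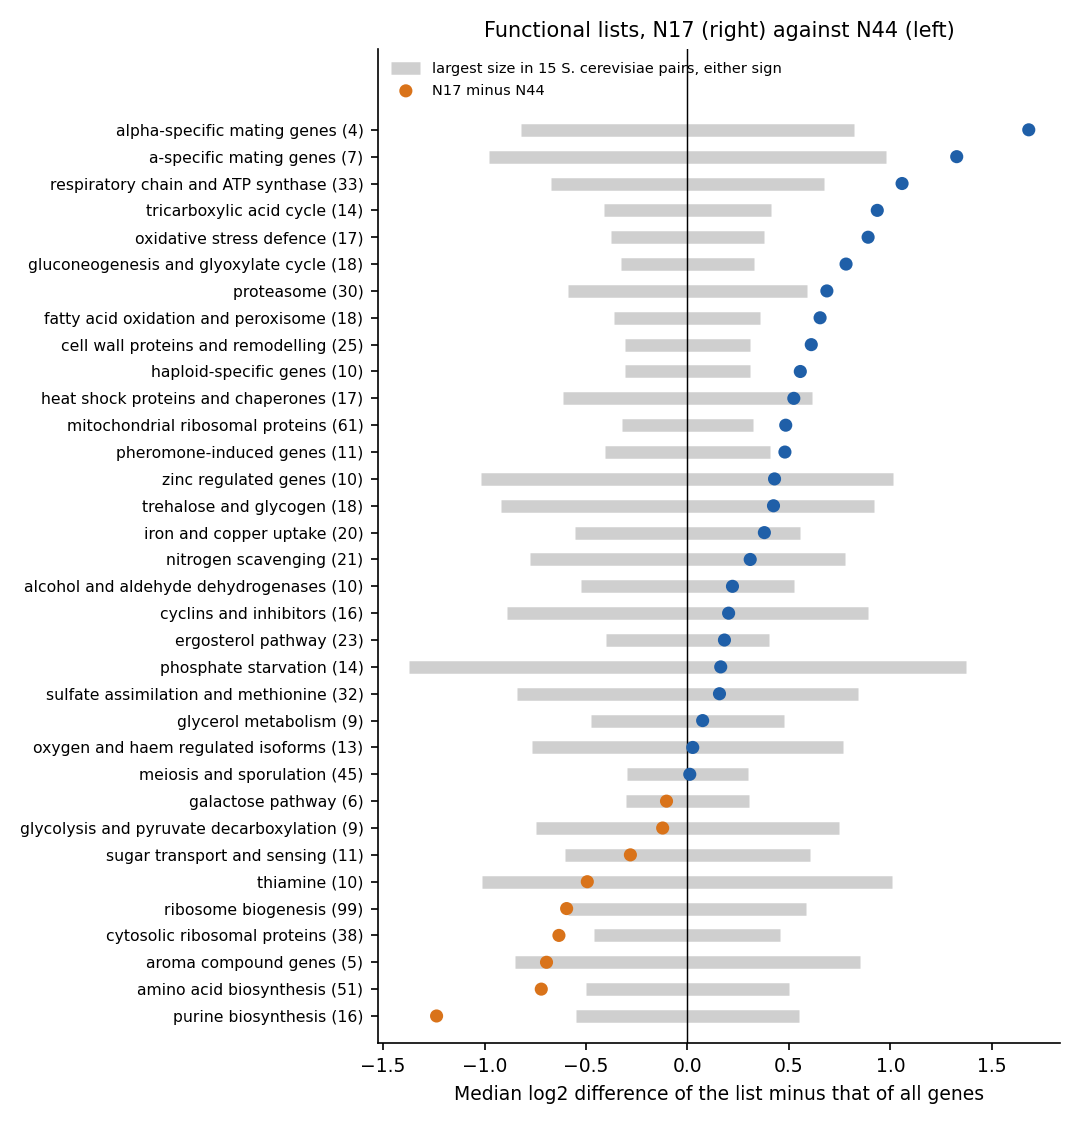
Each dot is the median log2 difference (N17 minus N44) of a functional list relative to all genes, for lists with at least 4 measured genes (number in brackets), blue where higher in N17 and orange where higher in N44; grey bars reach the largest size found in any of the 15 S. cerevisiae pairs, drawn to both sides. The 16 lists whose dots lie beyond their bars run from the purine list at −1.24 to the alpha-specific genes at 1.68.

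Of 36 functional lists, 16 had a median larger in size than in any S. cerevisiae pair, 12 of them higher in N17 and 4 higher in N44. The lists overlap, and the count fell to 13 without normalisation. Lists well inside the S. cerevisiae pairs included phosphate starvation (0.16, pairs up to 1.37), trehalose and glycogen (0.42, up to 0.92), sulfate assimilation (0.16, up to 0.84) and thiamine (−0.49, up to 1.01). These are groups in which S. cerevisiae strains themselves differ widely: GIT1, a glycerophosphoinositol transporter, stood at 59.3 RPKM in N17 and 12.7 in N44, while S. cerevisiae strains lay between 12.6 and 1043.

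The largest single differences were in genes of the cell surface and mating. PIR3 (YKL163W), a cell wall glycoprotein, stood at 847 RPKM in N17 and 34.2 in N44, with 83.6, 119 and 154 in S. cerevisiae (difference 4.73, a ratio of 26.6 on that scale). N17 was above and N44 below every S. cerevisiae strain. NCA3, a SUN-family protein, stood at 445 and 38.9 (17, 20.8 and 35.4; 3.53), and PST1, a wall protein that responds to wall damage, at 1164 and 208 (266, 376 and 507; 2.51). Some wall remodelling genes were higher in N44: UTR2, a chitin transglycosylase, with 122 and 500 (209, 410 and 694; −2.25), DSE1 with 22.6 and 68.7, SUN4 with 40.8 and 83.5, and KNH1, outside the list, with 25.7 and 79.0. DSE1 and DSE2 belong to the set transcribed in daughter cells, and in both N17 was under all S. cerevisiae strains. For DSE2 N44 was under them as well, at 6.91 against a lowest value of 7.14 on the normalised log2 scale. ZPS1, a wall protein gene of the zinc and pH response, differed by 4.50 with 1423 and 74.9 RPKM, inside an S. cerevisiae range of 29.6 to 2171.

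Mating genes showed a large common offset of both strains and a gap between them. MFA1 and MFA2, the genes of the a pheromone, stood at 551 and 616 RPKM in N17 and at 148 and 159 in N44, while the S. cerevisiae strains reached at most 6.65 and 6.36. STE2, the receptor of a cells, stood at 204 and 75.4 (at most 6.97 in S. cerevisiae; difference 1.47), and BAR1, the protease of a cells, at 76.6 and 32.4 (at most 4.09; 1.26). The alpha pheromone genes were present in the same libraries: MF(ALPHA)1 at 476 and 94.4 (at most 13.2; 2.32), and MF(ALPHA)2 (YGL089C) at 1213 and 56.0 (9.03, 13.4 and 21.4; 4.65). The MF(ALPHA)1 difference was smaller than its S. cerevisiae range, which ran from 1.42 to 4.13 on the log2 scale. SAG1, the alpha agglutinin, had 134 and 70.9 RPKM (at most 21.3; 0.91). Transcripts of both mating types were above the S. cerevisiae level in N17 and in N44, more so in N17. The 7 a-specific genes had a list median of 1.33 (pairs up to 0.98), with 5 past 2-fold and none higher in N44. The exceptions were ASG7, nearly equal at 18.6 and 16.8, and SCW11, a wall glucanase on the alpha list, at 48.6 and 86.3.

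Of 10 measured haploid-specific genes, which diploids repress, 8 lay above the median of all genes and 2 below it, with a list median of 0.56 (pairs up to 0.31). The 2 past 2-fold, 20% of the list against 7.33% of all genes, were both higher in N17. FUS3, the mating kinase, stood at 200 and 41.5 RPKM (0.774, 2.15 and 4.59; 2.32), and RME1, a repressor of meiosis, at 46.7 and 10.7 (1.68, 3.51 and 7.07; 2.11). Smaller gaps were seen for the G protein genes STE4, 29.3 and 15.1, and STE18, 82.5 and 52.1. GPG1 (YGL121C), proposed as a gamma subunit of another G protein, was among the 5 largest differences in N17's favour beyond the S. cerevisiae range, at 607 and 42.8 (21.2, 34.7 and 43.7; 3.89). Of the pheromone-induced genes, PRM5 was higher in N17, with 172 and 31.6, and FUS2, a cell fusion gene, higher in N44, with 8.83 and 21.2. The PRM5 difference was smaller than its S. cerevisiae range, which ran from 2.04 to 5.42 on the log2 scale.

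Early meiotic and sporulation transcripts were low in both strains and split. The list of 45 genes had a median of 0.01, and 14 of the 15 S. cerevisiae pairs had one at least as large in size. Past 2-fold, 6 genes were higher in N17 (13.3%, against 7.33% of all genes) and 4 higher in N44 (8.89%, against 5.84%). CDA1, a chitin deacetylase of the spore wall, stood at 55.5 and 5.92 RPKM (0.218, 0.846 and 3.54; 3.09), and SPO11, the meiotic nuclease, at 36.3 and 14.1 (1.59, 2.48 and 4.36; 1.32), so both strains were above S. cerevisiae. IME1, the initiator of meiosis, had 21.1 and 2.38, a difference smaller than its S. cerevisiae range of 0.129 to 16 RPKM. MEK1, a meiotic checkpoint kinase, was higher in N44, at 3.18 and 6.76 (1.06, 1.49 and 1.87; −1.38).

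Uptake and metabolism genes outside these groups gave isolated gaps. FRE1, a ferric and cupric reductase, stood at 855 RPKM in N17 and 177 in N44 (17.8, 33.6 and 48.2; 2.20), above S. cerevisiae in both. SUC2, invertase, which splits the sucrose of the medium, stood at 885 and 208 (32.6, 91.0 and 248; 2.04), with N17 above all S. cerevisiae strains. The SUC2 difference was smaller than its S. cerevisiae range, which ran from 5.20 to 7.96 on the log2 scale. GAP1, the general amino acid permease, had 15.3 and 2.70 (7.34, 9.41 and 21.4; 2.05), and THI4, an enzyme of thiazole synthesis, 36.6 and 7.11 (4.72, 6.13 and 7.93; 2.22). ADH4, an alcohol dehydrogenase, stood at 621 and 54.3 (69.8, 334 and 767; 3.58), with N44 the strain outside the range. ADH2, the ethanol-consuming isozyme, did not separate the pair, at 21.9 and 17.7, but both were far under the lowest S. cerevisiae value of 515. HXK2, the main hexokinase, stood at 253 and 477 (614, 1055 and 1173; −1.05), under S. cerevisiae in both and lower in N17. Other genes among the 15 largest in N17's favour, of those beyond the S. cerevisiae range with a mean of at least 5 RPKM, were SIP18, a protein of desiccation tolerance, at 74.6 and 5.95, NCE103, carbonic anhydrase, at 194 and 20.4, and TMA10, a ribosome-associated protein, at 609 and 63.0. YHR033W, MIN7 and LOH1 were also among them, with differences of 3.98, 3.51 and 3.03.

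Where each strain stood against S. cerevisiae was counted on the normalised scale. By the rule that chose the genes counted, at least 1 strain must lie outside the S. cerevisiae values. Among all 4288 genes with a range, 2.54% had N17 above and N44 below it, and 4.36% had N17 below and N44 above. Of the 228 genes higher in N17 beyond the range, 79 had N17 above and N44 within the S. cerevisiae values, 46 had N17 within and N44 below, and 69 had the strains on opposite sides. In the others both strains were above (28 genes) or both below (6). Of the 210 higher in N44, 50 had N44 above and N17 within, 62 had N44 within and N17 below, and 76 had the strains on opposite sides. The others had both above (10) or both below (12). Neither strain was thus the one apart throughout.

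By position in the R64 reference, the differences were spread over the genome: chromosome medians lay between −0.06 and 0.10 of the median of all genes. Chromosome XIV held a block at its left end. Its first 4 measured genes, from position 19541 to 38554, were all past 2-fold lower in N44. PEX6 (YNL329C), an ATPase of peroxisome biogenesis, stood at 18.6 RPKM in N17 and 0.802 in N44 (13.1, 19.4 and 23.2; 3.30), and PFA3 (YNL326C), a palmitoyltransferase of the vacuole, at 29.1 and 0.866 (12.9, 16.4 and 19.9; 3.94). VNX1, a vacuolar ion exchanger, had 52.2 and 7.31, and YNL320W 43.7 and 20.2. In RPKM, N17 was within or above the S. cerevisiae values in this block, and after normalisation it was just under them for PEX6. Over these 4 genes the N44 values climbed with distance from the end. The next 3 genes, PFS2, PHA2 and ATP11, stayed within 2-fold. DAL82, the gene after them, was again past 2-fold lower in N44, at 35.0 and 12.2 RPKM (13.3, 18.2 and 27.9; 1.485), with N44 under every S. cerevisiae strain. Only 4 genes in N44 were more than 4-fold below each of the other 7 strains, counting N17 and S. cerevisiae, where those had at least 5 RPKM. They are PEX6, PFA3 and VNX1 of this block and GRX7, a glutaredoxin gene of chromosome II, at 6.01 against 60.6 in N17. No gene in N17 met that rule. Whether these genes or parts of them are present in N44 was not tested.

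**Figure D5:**
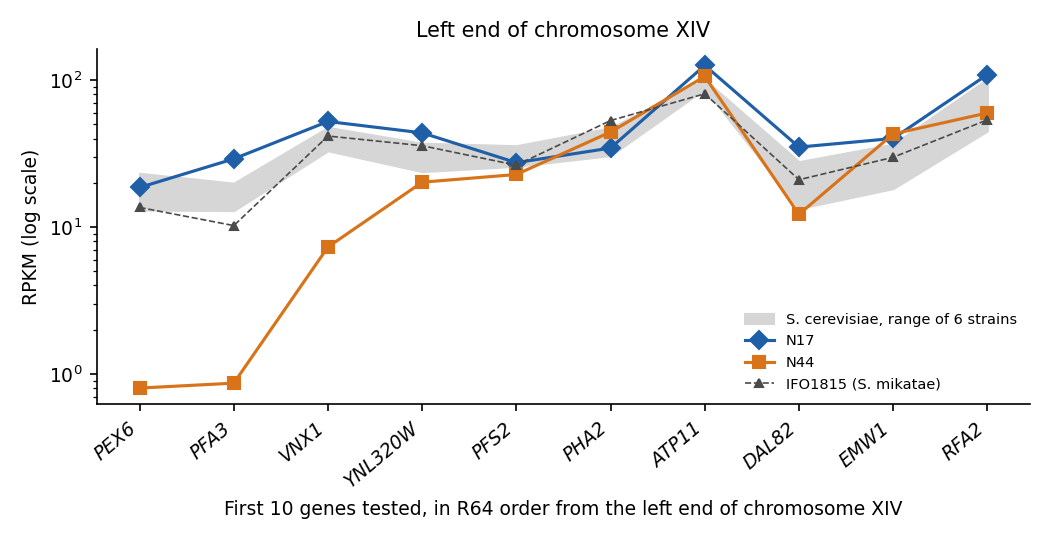
RPKM on a log scale for the first 10 measured genes from the left end of chromosome XIV, in order along the S. cerevisiae reference, for N17 (blue), N44 (orange), the S. mikatae strain (dashed) and the range of the 6 S. cerevisiae strains (grey band). N44 falls to 0.802 and 0.866 at PEX6 and PFA3 and is close to the other strains at PFS2, PHA2 and ATP11. At DAL82 it is again under the grey band.

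Over the genome, with this block counted, neighbours past 2-fold in the same direction formed 7 runs of at least 3 genes, of which 2 had 4. The other run of 4, also on chromosome XIV from position 158109 to 167790, was higher in N44 and held DSL1, SIP3, FOL1 and GIS2, with differences from −1.29 to −1.15. ARG4 on chromosome VIII was followed by DED81 and YHR020W, both also higher in N44, and LYS20 and INH1 on chromosome IV were neighbours that were both higher in N17. Within 20 kb of a chromosome end, 5 of 28 genes (17.9%), PEX6 among them, were past 2-fold higher in N17 and none higher in N44. From 20 to 40 kb the share was 8.52% in each direction, and beyond 40 kb it was 7.22% higher in N17 and 5.72% higher in N44.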

How the data were processed

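The authors deposited 1 value per gene and strain. The unit RPKM is not named in the labels and was inferred from the deposited values, whose low values in S. cerevisiae are whole multiples of a step set by gene length. In N17 and N44 at most 42.9% and 40.0% of low values were whole (tolerance 0.05, 90% required), so their depth is unknown. cutadapt, TopHat, Cufflinks and the build R64 are named in the submitters' processing notes; the genome used for S. paradoxus reads is not given in the sources used here. The values summed to 522913 in N17 and 500162 in N44.

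Values were transformed as log2(RPKM + 1) and quantile normalised with limma 3.58.1 (R 4.3.3) over N17, N44 and the 6 S. cerevisiae strains. IFO1815 (S. mikatae, 426 genes at 0) was left out. Symbols, lengths and positions came from RefSeq R64, which matched 4262 of the compared genes. Steps were tested on simulated data. Of the compared genes, 9 had no complete S. cerevisiae range. Genes named are the 15 highest and 15 lowest differences beyond the range with a mean of at least 5. To these were added up to 4 members of each list beyond the range, with no such limit on the mean. Others were chosen after their values were seen. Lists, members and rules were chosen with earlier results of these data known, and the length correction after seeing the data.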

Additional observations from a re-analysis of the deposited data

How the results depend on the processing

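The comparisons were recomputed with a pseudocount of 0.1, no filter, a mean of at least 10, no normalisation, median centring, quantile normalisation of N17 and N44 only, a 3-fold threshold, length bins subtracted, and without each S. cerevisiae strain. Of 1800 recomputed values, 1754 stayed within the limits set for them and 46 moved. The limits were a factor of 1.5 for counts, no change for the place of the pair, and the spread among S. cerevisiae strains or pairs for the rest. Differences of named genes made up 1241 of the values. A filter on the mean cannot change these, and leaving out an S. cerevisiae strain acts on them only through the normalisation. The total is therefore not a measure of how firm the results are. A reversal of sign was looked for only in the named genes and in the lists beyond every S. cerevisiae pair, and none was found. Of all 36 lists, 31 kept 1 sign in every setting, and the 5 that changed sign lay near 0. The N17 and N44 pair had the largest standard deviation in every setting that included the S. cerevisiae pairs. Its ratio to the median S. cerevisiae pair was 1.29 without normalisation and with median centring, and 1.34 to 1.5 when 1 S. cerevisiae strain was left out. Genes higher in N44 numbered 130 without normalisation, 149 with median centring and 28 at 3-fold, where 129 were higher in N17. Beyond the S. cerevisiae range, 93, 117 and 22 genes were higher in N44 in those settings, and 102 were higher in N17 at 3-fold. The gluconeogenesis median was 0.52 at a mean of at least 10 and the mitochondrial ribosomal median 0.28 with length bins subtracted. The cause of these moves was not tested, other than that a 3-fold threshold admits fewer genes. Lists beyond every S. cerevisiae pair numbered 16 as reported and 13 without normalisation, with median centring or with the pair normalised alone; the proteasome, ribosome biogenesis and pheromone-induced lists were the ones lost. No paired analysis was possible because N17 and N44 share no numbered replicates. With 1 library each, neither N17 nor N44 could be left out, and low values such as those of PEX6 in N44 have unknown counting error.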
